A study of Rattus norvegicus with 12 samples.

Results

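The channel set comprised every probe whose gene name in the scanner files begins with Scn, a number and a or b, or with Cacna, Cacnb, Cacng or Kcn. These names took in 161 of the 41012 probes of the array, for 125 of its 35561 gene names. Sodium channels had 19 probes for 14 genes, calcium channels 36 probes for 25 genes and potassium channels 106 probes for 86 genes. The names reach beyond strictly voltage-gated channels, since they include inward rectifiers, 2-pore leak channels, calcium-activated potassium channels and gamma subunits of the Cacng family, several of which are better known as partners of AMPA-type glutamate receptors.

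The RNA came from F11 cells, a hybrid line of rat dorsal root ganglion neurons and mouse neuroblastoma. The 4 treated groups were F11 cells given 10 µM forskolin, which activates adenylyl cyclase and so raises cAMP, for 2, 4, 24 or 48 h after 3 h in medium with 0.5% serum, with 3 samples each. The common reference was F11 cells kept for 3 h in the same low-serum medium with no forskolin. No untreated sample was taken at 2, 4, 24 or 48 h, so time in culture and forskolin cannot be told apart at any of these times. The probes were designed for rat, and rat and mouse transcripts of the hybrid cells were not separated. The labels do not state that the 3 samples of a time were separate cultures, and the p-values therefore cover only the differences among these samples, whose source may be technical.

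Sodium channels carry the rising phase of the action potential. Each is built on 1 large alpha subunit that forms the pore, with beta subunits that alter gating and surface expression. Voltage-gated calcium channels have an alpha1 pore joined by alpha2delta and beta subunits, which govern how many channels reach the membrane, and they couple firing to transmitter release and to gene expression. Potassium channels repolarise the cell or hold it at rest, and sensory neurons owe much of their firing pattern to which of these genes they express.

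Every array carried forskolin RNA in green (Cy3) and reference RNA in red (Cy5), so each value below is the log2 ratio of forskolin over reference, and a dye preference of a probe stays in the values against the reference and cancels between times. Between 18535 and 20530 probes per array rose well above background in green, and between 18216 and 21812 did so in red. The correlation of log2 ratios between arrays of the same time was at least 0.608. All 12 neuronal markers examined passed the filter on dim probes, whereas Mbp and Gfap, which mark glia, did not. The number of arrays limits the precision.

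Many channel genes were not measurable in these cells. Channel probes were well above background in 33.5% of probe and array pairs in the forskolin channel and 37.1% in the reference channel, against 46.6% and 49% of all probes. A probe was analysed further if at least 1 channel was well above background on all 3 arrays of at least 1 time, which 62 channel probes for 55 genes met (38.5%, against 49.788% of all probes). In 2 of them, a probe of Kcnh7 and a probe of Kcnab1, the forskolin channel was not well above background on any array. The other 70 genes had no probe that passed, and 50 of these had no probe well above background on any array.

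**Figure D1:**
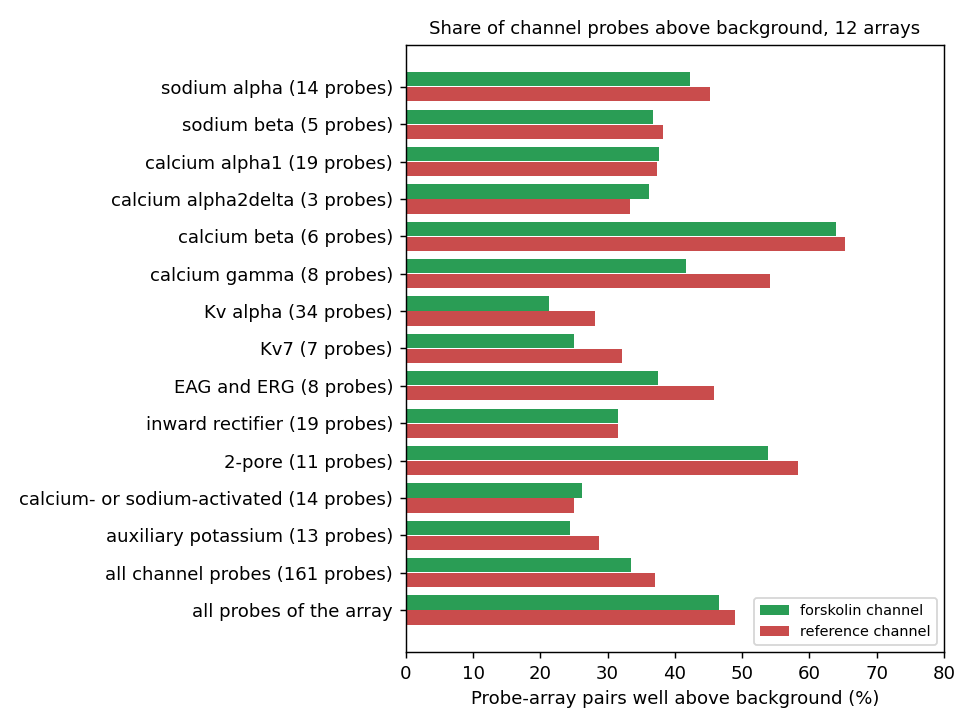
Share of probe and array pairs well above background over the 12 arrays, by channel family, in the forskolin channel (green) and the reference channel (red); bars start at 0%. Calcium beta subunits had the highest shares, at 63.9% and 65.3%, and the Kv alpha subunits had 21.3% and 28.2%.

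Some of the channels that define nociceptors in intact ganglia were among those not measured. Scn11a, a tetrodotoxin-resistant sodium channel, was never well above background, and Scn10a, the other tetrodotoxin-resistant channel of nociceptors, was so on 3 arrays in the forskolin channel and 5 in the reference channel. Scn1a, Scn2b and Scn4b were never well above background. Cacna1a, the pore of P/Q-type calcium channels, was well above background on 2 arrays in each channel. Among potassium channels, Kcna1, Kcna2, Kcnc1, Kcnd2, the small-conductance channels Kcnn1, Kcnn2 and Kcnn3 and the Kcne1 to Kcne4 subunits were never above background. No level or change is given for these genes.

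Among the 62 measured channel probes, limma called 2 higher and 9 lower at 2 h (17.7%), where 27.7% of all fitted probes were called at an adjusted p under 0.05. With the slide as a block the 2 h counts were 5 higher and 13 lower. At 4 h, 8 were higher and 19 lower (43.5%, against 49.3% of all probes). At 24 h the numbers were 17 higher and 11 lower (45.2%, against 52.4%, with 24.5% of all probes higher and 27.9% lower), and at 48 h they were 23 higher and 5 lower (45.2%, against 56.5%). The share called was thus below that of all probes at each time. Of all fitted probes, 26.8% were higher and 29.7% lower at 48 h, whereas the measured channels had 23 higher and 5 lower, a difference in split that was not tested. The median log2 ratio of the channel probes was -0.04, -0.07, 0.01 and 0.06 in time order, beside -0.02 for all fitted probes at each time.

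Between successive times, which share no dye effect, 5 channel probes were higher and 9 lower at 4 h than at 2 h (22.6%, against 14.9% of all probes, of which 5.65% were higher and 9.22% lower). At 24 h, 25 were higher and 5 lower than at 4 h (48.4%, against 38.5%, with 20.2% of all probes higher and 18.3% lower). At 48 h, 12 were higher and 0 lower than at 24 h (19.4%, against 14.0%, with 7.37% of all probes higher and 6.64% lower). The replicate number is the slide, and each slide holds every time. The called steps had the same sign within all 3 slides for 5 and 9, 25 and 5, and 12 probes. These signs were counted only among called steps, so the agreement follows largely from the choice and is no separate evidence. Time is also the array position on the slide, so these 2 cannot be told apart. Sodium channel probes had 0 lower and 5 higher of 8 in the step between 4 and 24 h, calcium channel probes 0 lower and 9 higher of 16, and potassium channel probes 5 lower and 11 higher of 38.

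**Figure D2:**
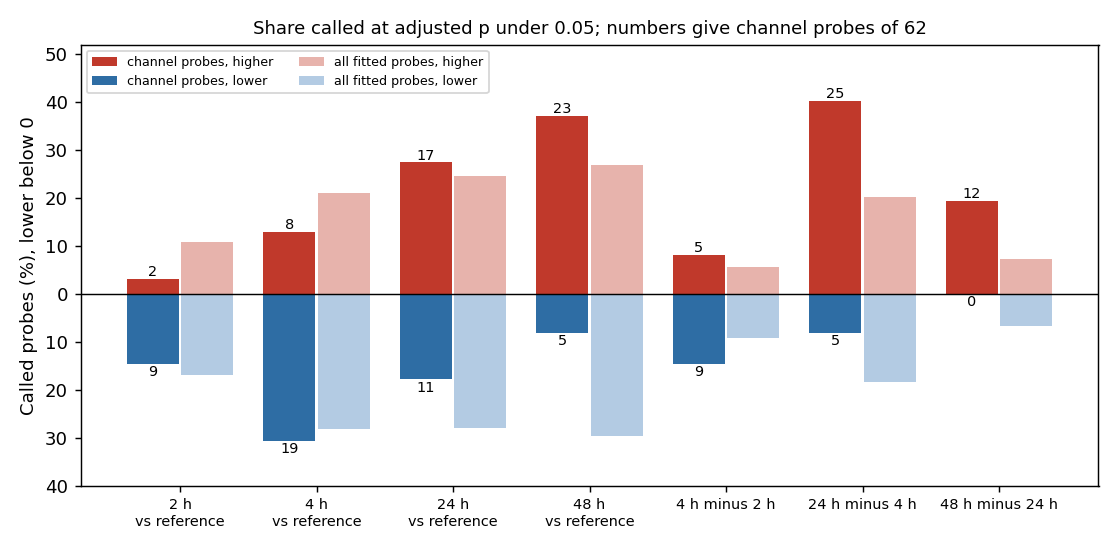
Percentage of the 62 channel probes (dark bars, with the number of probes) and of all 20418 fitted probes (pale bars) called higher (above 0) or lower (below 0) at each time against the reference and between successive times. The channel probes have 23 higher and 5 lower at 48 h, and 25 higher and 5 lower at 24 h against 4 h.

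The values against the reference depend on whether loess or median centring is used. With median centring the all-probe median took the values -0.55, -0.56, -0.43 and -0.45 in time order, and 76.8%, 77.5%, 72.4% and 73.5% of all probes were called, of which 1.78% to 5.41% were higher. The channel probes had 0 higher and 37 lower at 2 h (59.7%), 3 and 35 at 4 h (61.3%), 7 and 27 at 24 h (54.8%), and 8 and 21 at 48 h (46.8%), so that their share called was again below that of all probes. Fewer steps between times were called with median centring. They numbered 0 higher and 3 lower for 4 h against 2 h (1.88% of all probes called), 16 higher and 0 lower for 24 h against 4 h (18.1% of all probes, of which 78.4% were higher), and 4 higher and 0 lower for 48 h against 24 h (1.44% of all probes). Where a named channel's call against the reference changed sign with median centring, this is said beside it, with the value relative to the median of all probes.

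**Figure D3:**
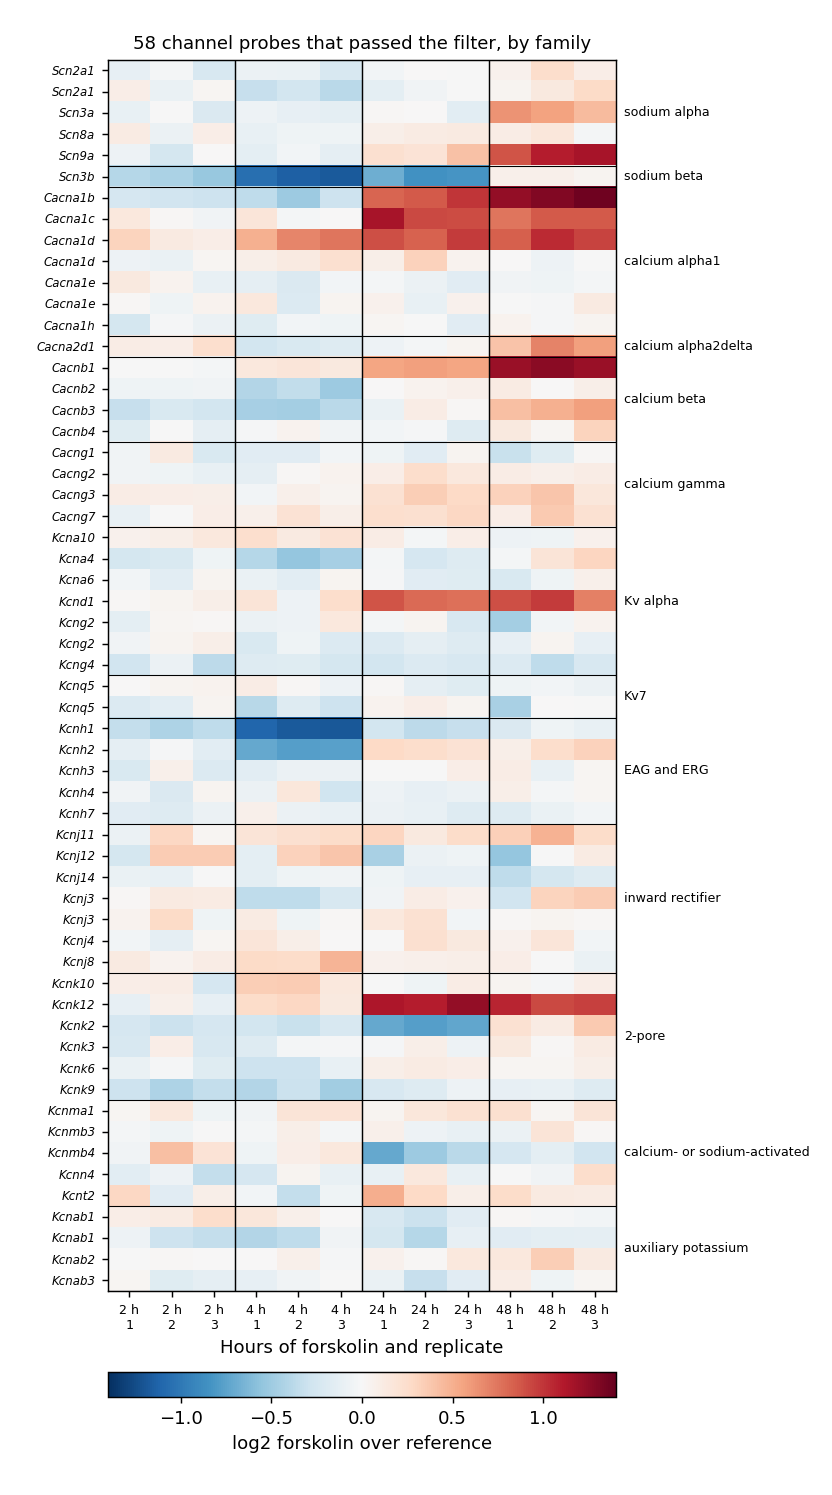
Log2 ratio of forskolin over reference on each of the 12 arrays for 58 of the 62 channel probes that passed the filter, grouped by family; columns run from 2 to 48 h with the 3 replicates of each time side by side. The deepest reds lie at 24 and 48 h (Cacna1b, Cacnb1, Kcnk12, Scn9a) and the deepest blues at 4 h (Scn3b, Kcnh1).

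Of the sodium channel pores, Scn9a rose at 24 h and further at 48 h. Scn9a encodes the sodium channel that amplifies small depolarisations in pain-sensing neurons, and its probe lies at chr3:48335223-48335282 (rn3, minus strand). The log2 ratios of Scn9a were -0.07, -0.24 and 0.01 at 2 h, -0.13, -0.03 and -0.13 at 4 h, 0.23, 0.19 and 0.41 at 24 h, and 0.88, 1.10 and 1.16 at 48 h. All 3 arrays of 48 h were above all arrays of 24 h, which in turn were above those of 2 and 4 h. The rise at 48 h was 2.06-fold (mean 1.05 ± 0.15, SD, n = 3; adjusted p = 5.4e-09), and the rise from 24 h was 0.77 (adjusted p = 5.5e-05). At 24 h the rise of 0.28 (adjusted p = 0.002) became -0.33 with median centring, which is 0.10 above the median of all probes there.

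Scn3a, an embryonic form that reappears in injured sensory neurons, was called at 48 h and at no earlier time. Its log2 ratios were 0.02, 0.00 and -0.15 at 24 h and 0.62, 0.56 and 0.45 at 48 h, a rise of 1.46-fold against the reference (adjusted p = 4.5e-07). With median centring it was 0.12 at 48 h and was not called. The offset used in the background step shrinks ratios of dim probes: without it Scn3a was 0.87 at 48 h in place of 0.54.

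Scn2a1, the current Scn2a, a pore of central axons, is shown with its brightest probe because it was called in opposite directions at different times; the probe lies at chr3:47616658-47616717 (rn3, plus strand), in the same stretch of chromosome 3 as Scn3a and Scn9a.
Scn2a1 probe: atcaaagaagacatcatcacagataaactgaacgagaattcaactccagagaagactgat
Its log2 ratios were -0.33, -0.25 and -0.38 at 4 h and 0.04, 0.14 and 0.26 at 48 h, with no overlap. The fall at 4 h was 1.25-fold (adjusted p = 0.00014). The small rise at 48 h (0.15, adjusted p = 0.025) was not called without 48 h replicate 2 or without 48 h replicate 3, fell to 0.09 at the lowest and was -0.26 with median centring, which is 0.19 above the median of all probes. A second probe of Scn2a1 had means of -0.13 at 4 h and 0.13 at 48 h. With median centring these were -0.30 and -0.10, which are 0.26 and 0.35 above the median of all probes at those times. Scn8a, the main sodium channel of the nodes of Ranvier, was measured on all arrays and was not called against the reference at any time, with means of 0.04, -0.08, 0.11 and 0.08 in time order. Its step of 0.18 between 4 and 24 h was called (adjusted p = 0.042), and was lost without any 1 of the 6 arrays of those times (lowest 0.17).

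Of the beta subunits, Scn3b fell early and rose between 24 and 48 h, to near the reference after loess. Scn3b, a beta subunit that shifts the gating of neuronal sodium channels, is among the brightest probes of the set (chr8:43262696-43262755, rn3, plus strand). Its log2 ratios were -0.40, -0.45 and -0.53 at 2 h, -1.06, -1.15 and -1.18 at 4 h, -0.69, -0.84 and -0.83 at 24 h, and 0.07, 0.07 and 0.04 at 48 h. No 2 times overlapped. The fall was 2.18-fold at 4 h (adjusted p = 2.4e-10), and the rise between 24 and 48 h was 0.85 (adjusted p = 1.3e-06). With median centring the rise was 0.77, still called, but Scn3b remained lower at 48 h, at -1.11, which is -0.66 relative to the median of all probes.

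**Figure D4:**
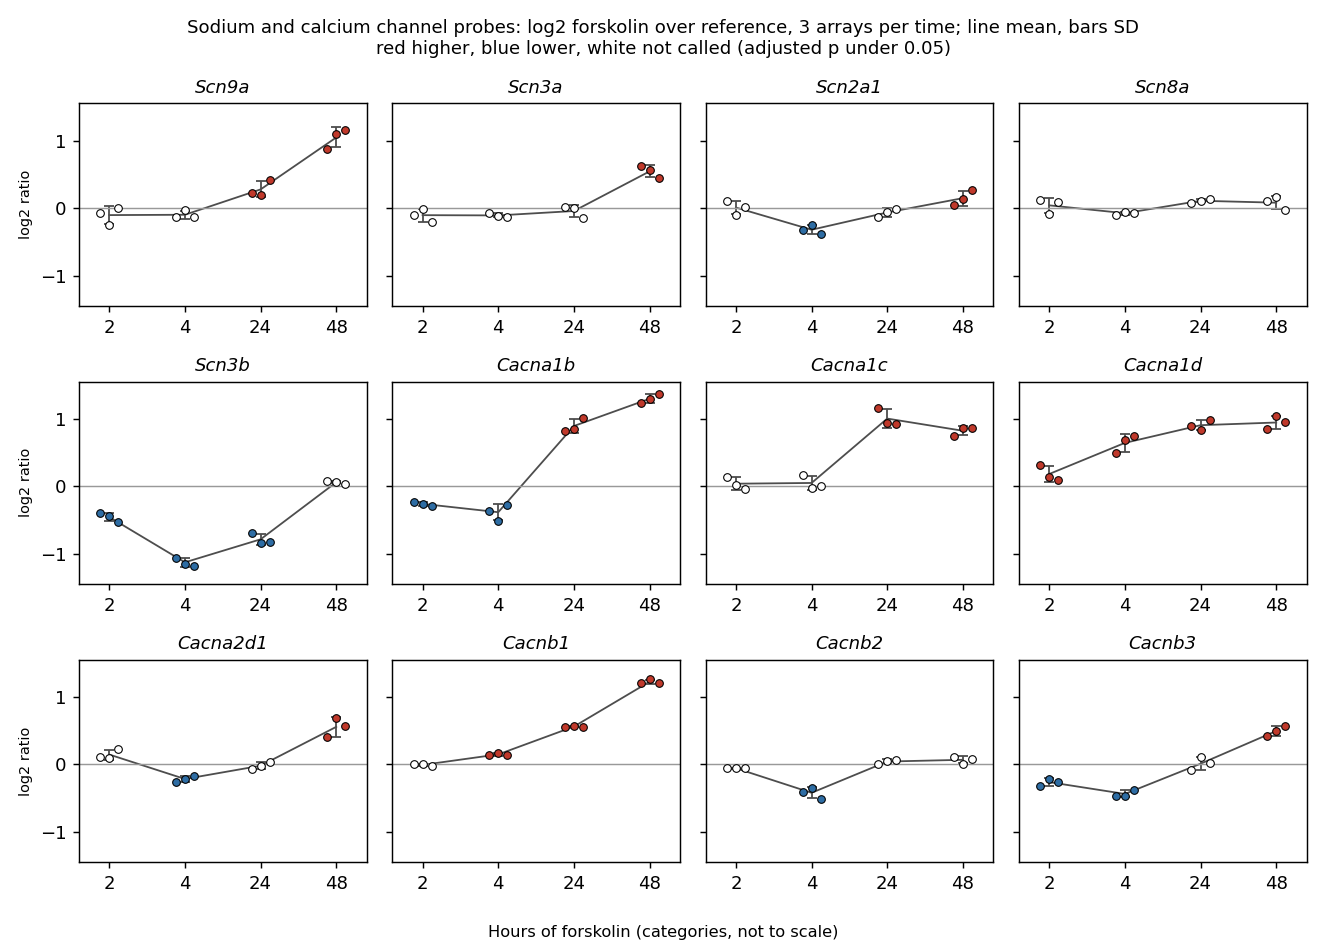
Log2 ratio of forskolin over reference on each array (points) for 12 sodium and calcium channel probes at 2, 4, 24 and 48 h, with the mean (line) and SD (bars) of 3 arrays; red points are called higher, blue lower and white not called. Scn9a, Cacna1b and Cacnb1 are highest at 48 h, and Scn3b is lowest at 4 h and, after loess, near 0 at 48 h.

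The calcium channel pores Cacna1b, Cacna1c and 1 probe of Cacna1d rose by 24 h. Cacna1b forms the N-type channel, which triggers transmitter release from sensory neurons, and Cacna1c and Cacna1d form L-type channels, which signal to the nucleus. The RefSeq table of promoters (GRCr8) held 37 promoters for 33 of the measured channel genes. Since these genes were given a cAMP-raising drug, the 250 bases before each start were searched for the cAMP response element TGACGTCA and for its core TGACG on either strand (CGTCA on the other), the core being contained in the full element. The full element was in 0 of the 37 promoters and in 1.59% of all 33469 promoters. The core was in 8 of 37 (21.6%), against 18.2% of all promoters, so its share among the measured channels was near that of all genes. The promoters of Cacna1b and Cacna1c, pores whose promoters hold this core, are printed with that of Scn9a, which holds none; capitals mark the core, and all 3 are written 5′ to 3′ on the minus strand.
Cacna1b, chr3:27944286-27944535: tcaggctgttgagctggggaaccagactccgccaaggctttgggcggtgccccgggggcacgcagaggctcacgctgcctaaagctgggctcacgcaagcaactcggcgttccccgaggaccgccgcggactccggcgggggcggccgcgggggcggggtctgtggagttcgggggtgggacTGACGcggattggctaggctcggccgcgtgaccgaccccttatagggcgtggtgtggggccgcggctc
Cacna1c, chr4:154051749-154051998: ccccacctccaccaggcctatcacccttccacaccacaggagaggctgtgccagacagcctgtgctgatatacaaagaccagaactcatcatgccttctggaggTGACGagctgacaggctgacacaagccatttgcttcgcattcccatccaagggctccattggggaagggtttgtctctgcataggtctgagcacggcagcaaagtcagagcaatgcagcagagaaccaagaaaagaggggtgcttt
Scn9a, chr3:71701378-71701627: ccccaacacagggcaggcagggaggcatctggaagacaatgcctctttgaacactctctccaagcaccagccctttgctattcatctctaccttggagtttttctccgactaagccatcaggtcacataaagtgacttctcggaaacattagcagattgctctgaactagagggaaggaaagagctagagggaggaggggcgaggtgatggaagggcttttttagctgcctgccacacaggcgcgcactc
The core of Cacna1b starts 68 bases before the transcript start and that of Cacna1c 146 bases before it. Among the accessory subunits called higher at 48 h, 1 of the promoters of Cacna2d1 also holds it, 177 bases before the start. The core was also in promoters of genes not called higher at 48 h, such as Cacnb2, Kcnq5 and Kcnab3. It was in none of those of Cacna1d and Cacnb3, which were higher at 48 h. For channel genes called higher at 48 h it was in 3 of 15 promoters (20.0%), near the 18.2% of all promoters. A match of these letters is a description only.

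Cacna1b was below the reference at 2 and 4 h and above it at 24 and 48 h. Its log2 ratios (probe at chr3:2873479-2873538, rn3, minus strand) were -0.23, -0.26 and -0.29 at 2 h, -0.36, -0.51 and -0.29 at 4 h, 0.82, 0.85 and 1.00 at 24 h, and 1.23, 1.30 and 1.36 at 48 h. The early and late arrays did not overlap, and the arrays of 48 h were all above those of 24 h. It was 1.31-fold lower at 4 h (adjusted p = 2.3e-05) and 2.45-fold higher at 48 h (adjusted p = 6.7e-11), and the step between 4 and 24 h was 1.28 (adjusted p = 8.9e-09). With median centring it was 0.25 at 24 h and 0.58 at 48 h, both still called.

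Cacna1c did not change early and was 2-fold higher at 24 h. Its log2 ratios were 0.14, 0.02 and -0.05 at 2 h, 0.17, -0.03 and 0.01 at 4 h, 1.16, 0.93 and 0.92 at 24 h, and 0.75, 0.86 and 0.86 at 48 h. The late arrays all lay above the early ones, while 24 and 48 h did not differ by the test (difference -0.18, adjusted p = 0.17). With median centring the rise was 0.37 at 24 h and 0.17 at 48 h, the second of which was not called.

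The 2 measured probes of Cacna1d differed in the size of their change. The probe at chr16:5383363-5383422 (rn3) had log2 ratios of 0.31, 0.13 and 0.10 at 2 h, 0.49, 0.68 and 0.75 at 4 h, 0.90, 0.83 and 0.98 at 24 h, and 0.84, 1.04 and 0.95 at 48 h. It was the 1 channel probe called higher at all 4 times, although the call at 2 h was lost without any 1 of the 2 h arrays (lowest value 0.11) and was -0.001137 with median centring, 0.55 above the median of all probes. The other probe, at chr16:5401120-5401179, had means of -0.05, 0.14, 0.15 and -0.03. Its small rises at 4 and 24 h were called, but were -0.17 and -0.08 with median centring, 0.39 and 0.35 above the median of all probes, and the 24 h value was 0.06 without 24 h replicate 2. The larger change of Cacna1d therefore rests on 1 probe. Which transcripts each probe detects was not tested. Cacna1e, the R-type pore, and Cacna1h, a T-type pore that lowers the firing threshold, were measured and not called at any time, with probe means between -0.12 and 0.03.

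The 9 measured probes of accessory calcium channel subunits had 4 higher and 0 lower at 24 h, and 6 higher and 0 lower at 48 h. Among all probes, 24.5% were higher and 27.9% lower at 24 h, and 26.8% and 29.7% at 48 h. With median centring the subunits had 0 higher and 5 lower at 24 h (55.6% lower), and 1 and 4 at 48 h (44.4% lower). Of all probes 69.3% and 69.6% were then lower, and 3.08% and 3.98% higher. In the step between 4 and 24 h, 6 subunit probes were higher by loess and 4 with median centring, with 0 lower in both. Of all probes, 20.2% and 14.2% were higher in that step, and 18.3% and 3.91% lower. Cacnb1 had log2 ratios of 0.14, 0.16 and 0.13 at 4 h, 0.55, 0.57 and 0.55 at 24 h, and 1.21, 1.26 and 1.20 at 48 h, with arrays of each time close together and well apart from the next. Cacnb1, a beta subunit best known from skeletal muscle, was 2.33-fold higher at 48 h (adjusted p = 4.6e-12). With median centring it was -0.80 at 4 h, which is -0.24 relative to the median of all probes, -0.27 at 24 h, 0.17 above that median, and 0.30 at 48 h, still called. Cacnb3, the beta subunit prominent in sensory neurons and a bright probe, had log2 ratios of -0.46, -0.47 and -0.38 at 4 h, -0.09, 0.10 and 0.01 at 24 h, and 0.42, 0.49 and 0.57 at 48 h. Its arrays of 4, 24 and 48 h did not overlap. With median centring it was -0.67 at 48 h, -0.23 relative to the median, whereas its step from 4 h to 24 h was 0.45 by loess (adjusted p = 9.1e-05).

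Cacna2d1, the alpha2delta subunit bound by gabapentin, has the highest mean signal of the measured channel probes, 12.6 as the mean log2 of both channels. Its log2 ratios were 0.11, 0.10 and 0.23 at 2 h, -0.26, -0.22 and -0.18 at 4 h, -0.07, -0.03 and 0.03 at 24 h, and 0.40, 0.69 and 0.57 at 48 h. The arrays of 4 h were the lowest and those of 48 h the highest. It was 1.47-fold higher at 48 h (adjusted p = 4.9e-07), which became -0.67 with median centring, -0.22 relative to the median of all probes. Between 24 and 48 h it rose by 0.58 (adjusted p = 0.00012), a step that was not called with median centring. Cacnb2, a beta subunit that slows inactivation, was lower at 4 h only of the 4 times (-0.41, -0.35 and -0.51; adjusted p = 1.4e-06). Of the Cacng genes, Cacng2, Cacng3 and Cacng7 were higher at 24 h, by 0.16, 0.28 and 0.25, and Cacng1 was not called at any time. Cacng2 was -0.02 at 24 h with median centring, 0.41 above the median of all probes, and its call was lost without 24 h replicate 2. With median centring Cacng3 was -0.22 at 24 h, 0.21 above that median, and Cacng7 was 0.14 and was not called.

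The 38 potassium channel probes had 1 higher and 6 lower at 2 h, 5 and 12 at 4 h, 6 and 10 at 24 h, and 8 and 5 at 48 h. The last pair is 21.1% and 13.2%. Among all fitted probes, 10.8% were higher and 16.9% lower at 2 h, and 21.1% and 28.2% at 4 h. The shares were 24.5% and 27.9% at 24 h, and 26.8% and 29.7% at 48 h. With median centring the potassium counts were 0 and 22, 2 and 21, 3 and 15, and 3 and 13. At 48 h 34.2% were then lower, against 69.6% of all probes, and 7.89% higher, against 3.98%. Kcnk12 rose at 24 h, with the highest mean of the set after loess with an offset of 50; a probe of Cacna1d was higher without the offset (1.60, against 1.57 for Kcnk12). Kcnk12 encodes a 2-pore subunit that is reported to be silent on its own, and its probe at chr6:11282304-11282363 (rn3, minus strand) is printed because the value rests on this probe alone.
Kcnk12 probe: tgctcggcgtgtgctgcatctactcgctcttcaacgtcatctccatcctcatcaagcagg
The log2 ratios of Kcnk12 were -0.11, 0.07 and -0.11 at 2 h, 0.26, 0.28 and 0.13 at 4 h, 1.13, 1.10 and 1.23 at 24 h, and 1.06, 0.92 and 0.96 at 48 h. The late arrays lay above all the early ones, and 4 h above 2 h. The rise at 24 h was 2.22-fold (adjusted p = 3.7e-10). At 4 h the rise of 0.23 became -0.19 with median centring, which is 0.37 above the median there.

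Among the Kv pores, Kcnd1, which carries a fast transient current, rose late. Kcnd1 had log2 ratios of 0.02, 0.04 and 0.09 at 2 h, 0.18, -0.07 and 0.24 at 4 h, 0.88, 0.80 and 0.77 at 24 h, and 0.91, 0.98 and 0.71 at 48 h, with the early and late arrays apart. The rise was 1.76-fold at 24 h (adjusted p = 7.8e-08). Kcna4, another transient Kv pore, was 1.38-fold lower at 4 h (-0.40, -0.55 and -0.46; adjusted p = 2.5e-05). Without the offset Kcna4 was -1.15 at 4 h in place of -0.47. Its call of 0.15 at 48 h was lost in 9 of 12 fits that left out 1 array, over a range of 0.08 to 0.24. The 48 h value was -0.22 with median centring, 0.23 above the median of all probes. Kcng4, a silent Kv subunit with a probe close to background, was lower at all 4 times. At 2 h its forskolin channel was not well above background and it was at least 1.18-fold lower, and its means at the later times were -0.20, -0.22 and -0.26. The calls at 2 and 4 h were lost without replicate 3 of that time, with smallest values of -0.18 and -0.17. With median centring it stayed below 0 but lay above the median of all probes, by 0.08 to 0.24.

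Kcnh1 fell at 4 h. Kcnh1, the founding ether-a-go-go channel, is linked to cell cycle control in tumour cells, and Kcnh2 forms the ERG channel, which sets the resting potential of neuroblastoma cells. Kcnh1 had log2 ratios of -0.33, -0.43 and -0.35 at 2 h, -1.11, -1.18 and -1.19 at 4 h, -0.25, -0.36 and -0.32 at 24 h, and -0.20, -0.06 and -0.11 at 48 h. Only the arrays of 2 and 24 h overlapped. It was 2.23-fold lower at 4 h (adjusted p = 1.1e-10), and its step between 4 and 24 h was 0.84 (adjusted p = 7.7e-08). The small fall at 48 h was not called without 48 h replicate 1 or replicate 3 (smallest -0.09).

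Kcnh2 had log2 ratios of -0.12, -0.02 and -0.15 at 2 h, -0.72, -0.77 and -0.76 at 4 h, 0.28, 0.25 and 0.20 at 24 h, and 0.08, 0.25 and 0.32 at 48 h. The arrays of 4 h stood below all others. The fall at 4 h was 1.68-fold (adjusted p = 2.4e-08) and the step between 4 and 24 h was 0.99 (adjusted p = 5.3e-08). The rises of 0.24 at 24 h and 0.22 at 48 h were -0.66 and -0.74 with median centring, -0.23 and -0.29 relative to the median, so their direction depends on that step. Kcnq5, which contributes to the M-current and is the 1 Kv7 gene measured, was 1.22-fold lower at 4 h (-0.39, -0.18 and -0.29; adjusted p = 0.0065), a call lost without 4 h replicate 1 (smallest value -0.23). Its dimmer second probe had a mean of 0.02 at 4 h and was not called.

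**Figure D5:**
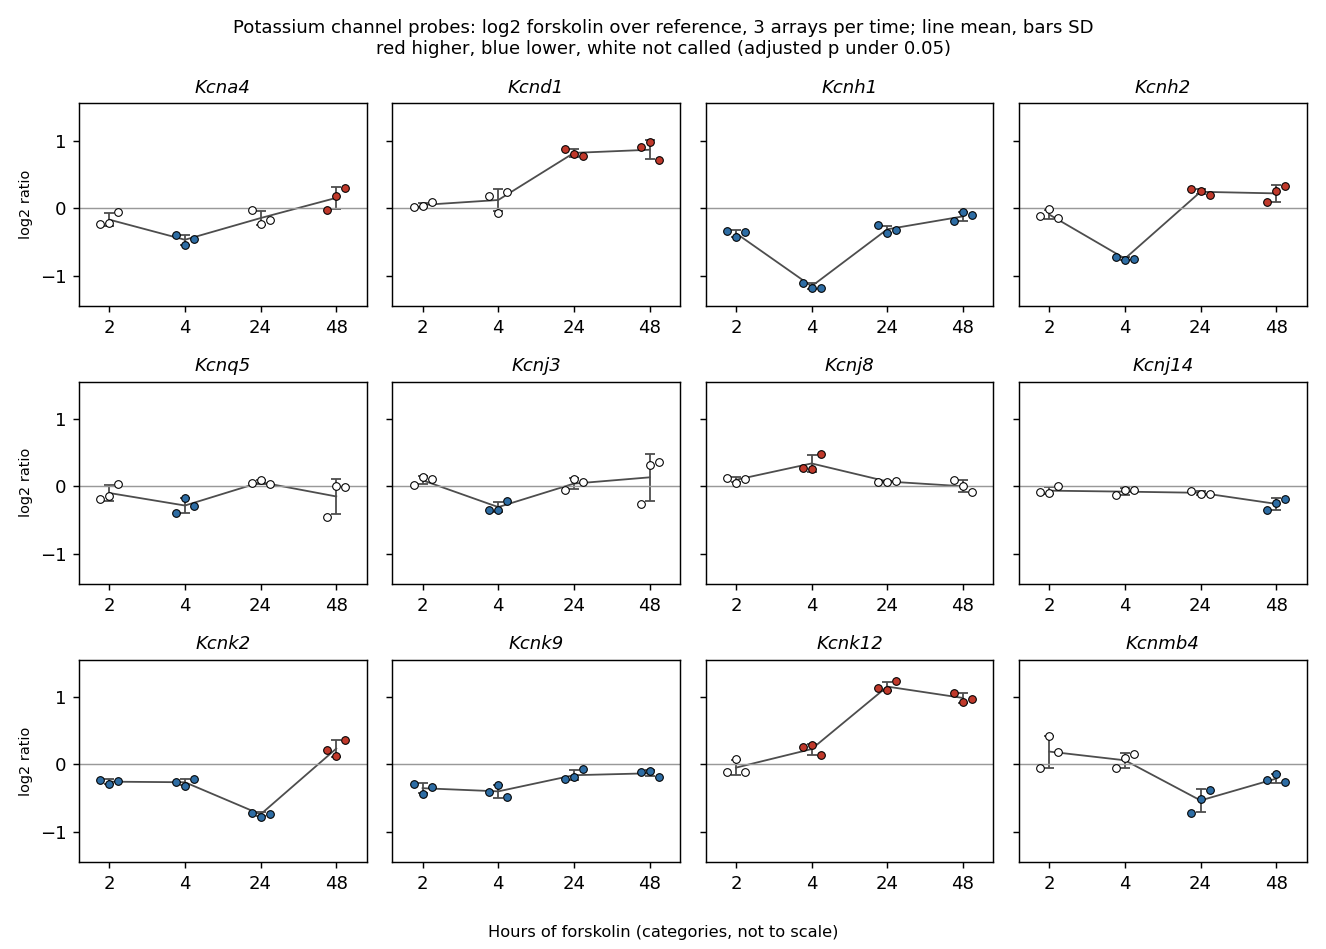
Log2 ratio of forskolin over reference on each array (points) for 12 potassium channel probes at 2, 4, 24 and 48 h, with the mean (line) and SD (bars) of 3 arrays; red points are called higher, blue lower and white not called. Kcnh1 and Kcnh2 are lowest at 4 h, Kcnk12 and Kcnd1 are high at 24 and 48 h, and Kcnk2 is lowest at 24 h.

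Of the other leak channels, Kcnk2 and Kcnk9 fell early, and Kcnk6 fell at 4 h (mean -0.23, adjusted p = 0.00087). With median centring Kcnk6 was -0.31 at 4 h, which is 0.25 above the median of all probes. Kcnk2, a leak channel gated by stretch, heat and fatty acids and closed by cAMP signalling, had log2 ratios of -0.23, -0.30 and -0.24 at 2 h, -0.26, -0.31 and -0.22 at 4 h, -0.72, -0.77 and -0.73 at 24 h, and 0.22, 0.12 and 0.36 at 48 h. It was lowest on the 24 h arrays and highest on the 48 h arrays, without overlap, and rose by 0.97 between them (adjusted p = 5.4e-07). It was 1.67-fold lower at 24 h (adjusted p = 1.2e-08). With median centring the 48 h value was -0.50, -0.05 relative to the median, and the step between 24 and 48 h was 0.85. Kcnk9, an acid-sensitive leak channel, was lower at all 4 times, most at 4 h (-0.42, -0.30 and -0.49, or 1.32-fold, adjusted p = 9.5e-06). Its call of -0.16 at 24 h was lost without 24 h replicate 1 or 24 h replicate 2 (smallest -0.13). Its mean of -0.13 at 48 h was lost without any 1 of the 48 h arrays (smallest -0.11). Kcnk10 was higher at 4 h by 0.28 (adjusted p = 0.0026), but was 0.11 with median centring and was not called. Kcnk3 was not called at any time after loess.

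Among inward rectifiers, Kcnj8 and Kcnj11, the pores of ATP-sensitive channels, were higher at some times. Kcnj8 had log2 ratios of 0.27, 0.26 and 0.48 at 4 h (1.26-fold; adjusted p = 5.4e-05) and means within 0.09 of the reference at the other times. Kcnj11 was higher at 24 and 48 h, by 0.23 and 0.36, and at 4 h by at least 1.17-fold, since its reference channel was not well above background on those arrays. The bound takes the higher of the measured reference signal and the lowest signal among probes well above background, as for the other bounds, and here equals the fitted fold. The call at 4 h was lost without 4 h replicate 3 and that at 24 h without 24 h replicate 1. With median centring Kcnj11 was 0.08 at 24 h and was not called. Kcnj3, a G protein-gated channel, was lower at 4 h on its brightest probe (-0.36, -0.35 and -0.22; adjusted p = 0.01), but not on a dim second probe (0.02), and the call was lost without 4 h replicate 1 or 4 h replicate 2 (smallest -0.29). The files place most Kcnj3 probes on chromosome 8, whereas the RefSeq list places the gene on chromosome 3, so the identity of these probes is uncertain. Kcnj14 was lower at 48 h (mean -0.26, adjusted p = 0.00011).

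Of the channels opened by calcium or sodium, Kcnmb4, a neuronal beta subunit of the large-conductance channel, fell at 24 h. Its log2 ratios were -0.05, 0.43 and 0.19 at 2 h, -0.06, 0.09 and 0.15 at 4 h, -0.72, -0.51 and -0.38 at 24 h, and -0.23, -0.14 and -0.27 at 48 h. The arrays of 24 h were the lowest. The fall at 24 h was 1.45-fold (adjusted p = 5.8e-05), and the mean of -0.21 at 48 h was lost without any 1 of the 48 h arrays (smallest -0.18). Its pore Kcnma1 was near background and was not called. Of the Kcnab beta subunits, Kcnab2 was higher at 48 h by 0.21 (adjusted p = 0.0018), but was 0.10 with median centring and was not called. Kcnab1 had a small rise at 2 h on its brighter probe (0.15), a call lost without 2 h replicate 2 or replicate 3. With median centring the brighter probe was -0.03 at 2 h, 0.52 above the median of all probes. This probe was lower at 24 h (-0.23, -0.30 and -0.16; adjusted p = 0.00067), though 0.07 above the median of all probes with median centring. In a second probe of Kcnab1 the forskolin channel was never well above background, and it was at least 1.18-fold lower at 2 h. That call was likewise lost without 2 h replicate 2 or replicate 3, and was not made without the offset (adjusted p = 0.059). This second probe was also called lower at 4 and 24 h, with fitted values of -0.27 and -0.25. The 4 h call was lost without 4 h replicate 1 or replicate 2, and the 24 h call without 24 h replicate 2. With median centring the second probe lay above the median of all probes, by 0.28 at 2 h, 0.29 at 4 h and 0.28 at 24 h. Its 24 h call was not made there. Kcnab3 was lower at 24 h (mean -0.19, adjusted p = 0.0078), likewise 0.10 above that median, and the call was lost without 24 h replicate 2.

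Over the set, 44 of 62 probes were called at some time and 18 at none. Of the 19 probes lower at 4 h, 14 were higher at 24 h than at 4 h (73.7%, against 42.4% of all probes lower at 4 h), a step that shares the 4 h values, and 9 were higher than the reference at 48 h (47.4%, against 25.3%). With median centring 35 were lower at 4 h, of which 16 were higher at 24 h than at 4 h (45.7%, against 18.2%) and 5 higher than the reference at 48 h (14.3%, against 1.85%). The difference between these shares was not tested. Cacna1b and Kcnh2 were among those called lower at 4 h and higher at both 24 and 48 h, Cacna1b also with median centring. The values at 4, 24 and 48 h share the same kind of reference RNA, and each is given as its own comparison.

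Partners and regulators of these channels, a list of 49 genes of which 42 were on the array and 26 passed, had 3 higher and 4 lower at 2 h, 6 and 4 at 4 h, 10 and 6 at 24 h, and 12 and 3 at 48 h. Of all probes, 10.8% were higher and 16.9% lower at 2 h, 21.1% and 28.2% at 4 h, 24.5% and 27.9% at 24 h, and 26.8% and 29.7% at 48 h. The median was 0.02, 0.03, 0.08 and 0.12 in time order, beside -0.02 for all fitted probes. Gem, a small GTPase that inhibits voltage-gated calcium channels, was higher by 1.08 at 2 h (adjusted p = 1.9e-07) and by 0.88 at 4 h (adjusted p = 2.5e-07), and was not called at 24 h. The pacemaker channels Hcn2 and Hcn3 were lower at 4 h, with means of -0.51 and -0.60. Hcn3 was lower at all 4 times, whereas Hcn2 was higher at 48 h by 0.17 (adjusted p = 0.0018). Akap5, which anchors protein kinase A at channels, was lower at each time (-0.70 at 4 h, -0.65 at 48 h), while Akap6 was 0.76 higher at 48 h. Fgf13, which binds sodium channel pores, was lower at 24 h (-0.76), and Ank2, an ankyrin, was higher by 0.43 at 48 h.

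Most neuronal markers were higher at 48 h, whereas at 24 h they went both ways. The marker lists were fitted after loess only, so their calls with median centring are not known. Of 12 markers, 3 were higher and 6 lower at 4 h, 4 higher and 3 lower at 24 h, and 10 higher and 0 lower at 48 h, where 49.3%, 52.4% and 56.5% of all probes were called in time order. Their summed level on the linear scale after normalization was 113126 to 120152 at 2 h, 103211 to 108149 at 4 h, 148477 to 166650 at 24 h and 195007 to 199130 at 48 h, against 118319 to 130525 in the reference. Prph made up most of this sum, with a mean level of 88321 in the forskolin channel and 70520 in the reference channel. At 24 h the 3 lower markers were Stmn2 (-0.33), Gap43 (-0.23) and Nefm (-0.43). Snap25 was higher by 1.47 and Prph by 0.92 at 48 h. Of the other cell types, 2 of 8 glial, 3 of 6 fibroblast and 3 of 6 leukocyte and endothelial markers passed, with summed levels at 48 h of 224 to 234, 824 to 1026 and 241 to 261, against 237 to 269, 798 to 881 and 235 to 265 in the reference. Their part in the channel values was not tested. In bulk RNA, a change in the share of cells that express a channel and a change in RNA per cell cannot be told apart.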

How the data were processed

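RNA of F11 cells was measured on 12 two-colour arrays. The scanner files hold intensity values, which per the file headers come from version 9.5.1.1 of Feature Extraction and use build rn3; the deposited files give each spot's mean and local background in both colours. The authors' log2 values, in the series matrix, run as red over green; the submitters' processing notes name limma, with no normalization stated there. With the sign turned, they correlated at 0.99 to 0.997 with the values used here. As deposited, before the sign was turned, their column medians were 0.00783 to 0.0134.

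Intensities were corrected with normexp (offset 50), normalized by loess within each array in limma 3.58.1 (R 4.3.3), outlier-flagged spots were left out and spots averaged per probe. A single limma model with a mean per time was fitted to 20418 probes, with Benjamini-Hochberg adjustment over all of them and calls at an adjusted p under 0.05. The reference counts as 1 control sample, so its own spread is left out. Probes named in the text were those with the largest called changes, 8 in each direction against the reference and 5 for each step, with well-known channels of each family. The members and lists were chosen with earlier results of these data known. Names were matched to RefSeq (GRCr8) for 127 probes by accession and 33 by symbol. The replicate number is the slide, per the file headers, and deviations of same-numbered arrays correlated at 0.0578 to 0.483. Alternatives covered background, normalization, filter, probe choice, the slide as a block, the authors' values and each array left out. The code was tested on simulated data. Some genes are counted in the totals but are not reported here by name.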

Additional observations from a re-analysis of the deposited data

Results flagged for a closer look

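The channels below were called in opposite directions at 2 times, and limma gave the later minus the earlier log2 ratio with its p-value. The same values chose the probes, and the pair of times with the largest difference is given for each. A low p-value therefore follows largely from the choice and is no separate evidence. With median centring 1 of these 9 probes, Cacna1b, still had opposite calls, while the differences kept their sign in 9 and were called in 8 (all but the second probe of Scn2a1). Cacna1b differed by 1.68 between 48 and 4 h (adjusted p = 3.8e-10) and Cacnb3 by 0.93 (adjusted p = 4.8e-08). Cacna2d1 differed by 0.77 (adjusted p = 8.7e-07) and Kcna4 by 0.62 (adjusted p = 4e-05) between the same times. The 2 probes of Scn2a1 differed by 0.47 (adjusted p = 1e-04) and 0.27 (adjusted p = 0.0055). Kcnh2 differed by 0.99 between 24 and 4 h (adjusted p = 5.3e-08), and Kcnk2 by 0.97 between 48 and 24 h (adjusted p = 5.4e-07). Kcnab1 was the 1 gene here with the lower value later, at -0.38 between 24 and 2 h (adjusted p = 0.00033).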

How the results depend on the processing

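Median centring in place of loess changed the most. The number of channel probes called became 37 at 2 h (59.7%, against 76.8% of all probes), 3 for 4 h against 2 h (4.84%, against 1.88%), 16 for 24 h against 4 h (25.8%, against 18.1%) and 4 for 48 h against 24 h (6.45%, against 1.44%). Of 75 named calls against the reference, 51 were kept, 8 lost and 16 turned in sign; of 49 named steps, 0 turned and 29 were lost. The turned values were, at 2 h, Cacna1d -0.001137 and Kcnab1 -0.03283; at 4 h, the second Cacna1d probe -0.17, Cacnb1 -0.80 and Kcnk12 -0.19; at 24 h, the second Cacna1d probe -0.08463, Cacnb1 -0.27, Scn9a -0.33, Cacng2 -0.02308 and Kcnh2 -0.66; and at 48 h, Kcnh2 -0.74, Scn2a1 -0.26, Cacna2d1 -0.67, Cacnb3 -0.67, Kcna4 -0.22 and Kcnk2 -0.50. Outside these 75 calls, the second Scn2a1 probe at 48 h also turned, to -0.09681, and Cacng3 at 24 h, to -0.2173. The cause was not tested. Without a filter 8 probes were called for 4 h against 2 h (4.97%, against 5.21% of all probes). With both channels above background on all arrays, 7 of 34 were called at 2 h (20.6%, against 34.6%). The slide as a block, a paired fit, gave 18 at 2 h and changed no named call. Leaving out 1 array gave 6 to 14 calls at 2 h and 7 to 14 for 4 h against 2 h, both lowest without 2 h replicate 3, 23 to 28 at 4 h, 21 to 30 at 24 h, 23 to 29 at 48 h, 23 to 30 for 24 h against 4 h and 8 to 13 for 48 h against 24 h. Most channel probes were dim, with a median log2 signal of 6.63, and the offset shrinks their ratios: without it Cacna1d was 1.60 at 24 h in place of 0.90.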
